A study of Pongo abelii with 8 samples.

Results

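Chemokines are small secreted proteins that steer the movement of leukocytes. The chemokine genes on an array made for human transcripts were followed here from orangutan skin fibroblasts to the induced pluripotent stem cells (iPSCs) derived from them. A gene was taken as a member when its probe set carried exactly 1 gene symbol and that symbol began with CCL, CXCL, XCL or CX3CL followed by a number. This rule used names and no measured value. It found 42 probe sets of the 22277 on the array, which stand for 32 genes of the 11963 genes with 1 symbol. For 23 of the genes there was 1 probe set, and for the other 9 the probe set with the highest mean over the arrays was taken for the gene.

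Chemokines are grouped by the spacing of their first cysteines into the CXC, CC, C and CX3C classes, and they act on receptors of the G protein-coupled kind on the target cell. Those CXC chemokines that carry a glutamate-leucine-arginine motif (ELR) before the cysteines draw neutrophils, whereas many CC chemokines draw monocytes, dendritic cells or lymphocytes. Skin fibroblasts are a known source of several of them, since interleukin-1 and tumour necrosis factor switch on chemokine genes through the transcription factor NF-kappaB.

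RNA came from 8 cultures of 2 healthy Sumatran orangutans, with 1 dermal fibroblast culture and 3 iPSC colonies from each animal. KB10460 was a female aged 43 years and KB10973 a male aged 29 years. The iPSCs of both had received retroviruses that carry human OCT4, SOX2, KLF4 and c-MYC, and were expanded on inactivated mouse embryonic fibroblasts. Each culture was measured on 1 one-colour Affymetrix array, and the values below are the log2 values that the authors obtained by RMA, a method that normalizes all arrays together. Array medians lay between 3.74 and 3.82 on this log2 scale. The colonies of 1 animal are not independent animals, so that p-values measure the spread between these cultures.

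The groups differed in more than cell type. Fibroblasts were released with trypsin and iPSCs with collagenase, and the labels give serum medium for the fibroblasts in one place and serum replacement for both cell types in another. Cell type, harvest, the retroviral factors and mouse feeder cells of the iPSCs and, if it differed, medium cannot be told apart here. Markers listed for the cell types followed the labels in most cases. Of 11 fibroblast markers 10 were called lower in the iPSCs, with THY1 called higher, and all 7 pluripotency markers with 1 symbol were called higher.

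Calls rest on limma over all probe sets, two-sided, and required a fold change above 1.5 with a p, adjusted after Benjamini and Hochberg, below 0.05. No chemokine gene was called higher in the iPSCs, and none was higher at an unadjusted p under 0.05. In contrast, 11 of the 32 were called lower, or 34.4%. Over all genes 11.5% were called lower and 15.2% higher. The median iPSC minus fibroblast difference was -0.16 on the log2 scale over the chemokine genes and -0.0039 over all genes. All 6 iPSC arrays lay below both fibroblast arrays for 13 chemokine genes, or 40.6%, against 19.7% of all genes. By probe set, 13 of 42 were called lower and 1 higher, where 9.6% and 12.2% of all probe sets were. The counts were unequal between families. All 6 ELR chemokines with a symbol of the pattern were called, whereas PPBP, an ELR chemokine outside it, was not (-0.12, adjusted p = 0.456 in limma). Also called were 2 of 3 monocyte chemoattractants, 1 of 3 interferon-inducible CXC genes, 1 of 2 macrophage inflammatory CC genes and 1 of 7 lymphoid and tissue CC genes. In a bulk culture, fewer cells of a type and less RNA per cell cannot be told apart.

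**Figure D1:**
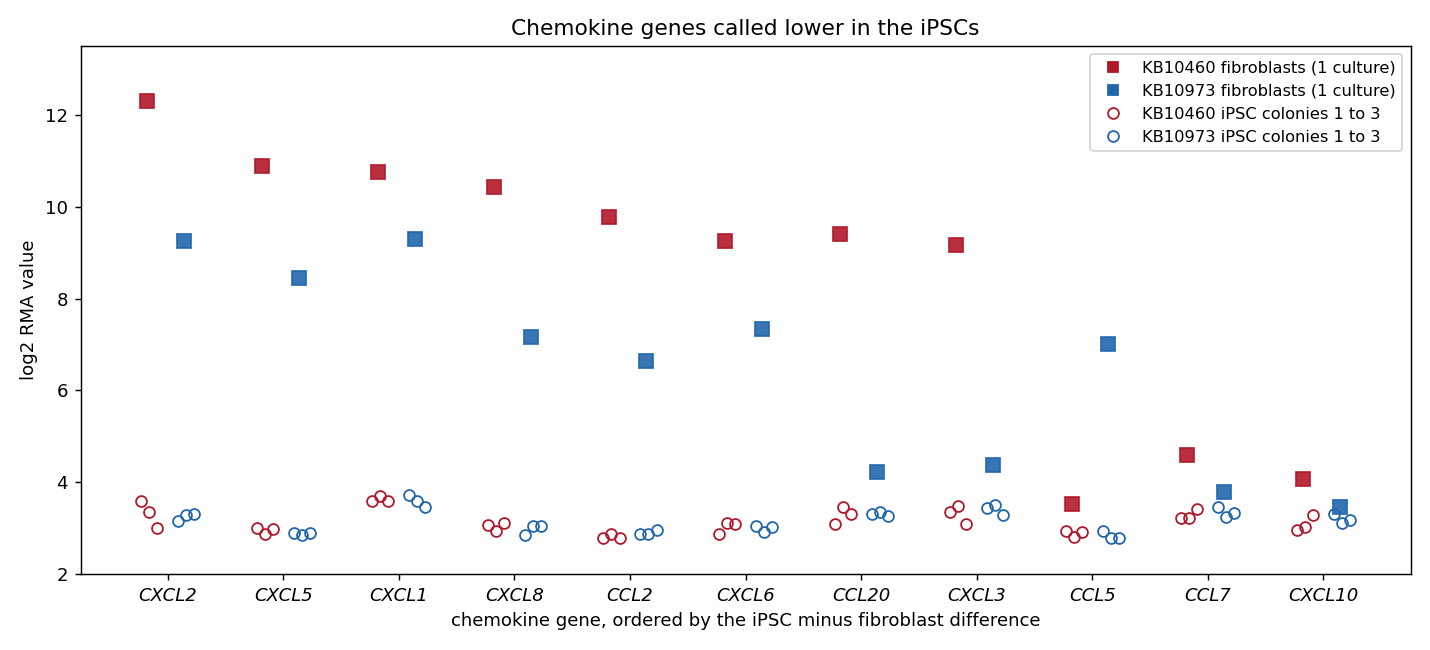
Log2 RMA values (y axis) of the 11 chemokine genes called lower in the iPSCs (x axis, ordered by the size of the difference), with a filled square for each fibroblast culture and an open circle for each of the 6 iPSC colonies, coloured by donor. The colonies of both donors lie between 2.78 and 3.72 for every gene, and the red squares of KB10460 lie above the blue squares of KB10973 for every gene but CCL5.

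The 3 largest differences of the family were those of the ELR chemokines CXCL2, CXCL5 and CXCL1. CXCL2, a neutrophil attractant also known as GRO-beta, had log2 values of 12.30 in the KB10460 fibroblasts and 9.25 in the KB10973 fibroblasts. Its iPSC arrays ran from 3.00 through a median of 3.30 to 3.60. The fibroblast values were thus both far above every colony, and the difference was -7.49 (SE 0.61, adjusted p = 1.81e-05 in limma). Within KB10460 the level was 505-fold lower in the mean of 3 colonies than in the fibroblasts, and within KB10973 it was 63.7-fold lower. Values near the bottom of the scale are background, so such folds may understate a fall. The probes of this CXCL2 probe set may also bind other sequences, and the net error of the folds was not tested.

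CXCL1, a close paralog of CXCL2, had values of 10.75 and 9.29 in the KB10460 and KB10973 fibroblasts. The colonies ran from 3.46 through 3.60 to 3.72. No colony came near either fibroblast array, and CXCL1 had the smallest adjusted p of the 32 genes, with a difference of -6.41 (SE 0.30, adjusted p = 4.83e-07 in limma). CXCL3, the third of these paralogs, behaved differently between the fibroblast cultures, with 9.16 in KB10460 and 4.37 in KB10973. The colonies had 3.09 to 3.50 with a median of 3.39. Both fibroblast values were above all colonies, but only that of KB10460 was far above. The CXCL3 difference was -3.41 (SE 0.93, adjusted p = 0.0221 in limma), and without the KB10460 fibroblasts it was -1.01. The call was lost when colonies were averaged within donor (adjusted p = 0.283 in limma). CXCL1, CXCL2 and CXCL3 are close paralogs, so that the separation of their signals is uncertain and was not tested. In the KB10973 fibroblasts CXCL3 had 4.37, where CXCL1 had 9.29 and CXCL2 had 9.25.

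CXCL5, which is made by epithelial cells and fibroblasts and draws neutrophils, had 10.89 and 8.45 in the KB10460 and KB10973 fibroblasts. Its colonies spanned 2.86 to 3.01 with a median of 2.90, a range narrower than that of any other ELR gene. The difference was -6.75 (SE 0.48, adjusted p = 7.78e-06 in limma). CXCL6, which shares the receptors of CXCL8, had 9.26 and 7.34 in the fibroblasts. Its colonies ran from 2.88 through 3.04 to 3.11, and the groups did not overlap. The CXCL6 difference was -5.29 (SE 0.38, adjusted p = 8.75e-06 in limma).

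CXCL8, or interleukin-8, is the best known neutrophil attractant. It had 10.44 in the KB10460 fibroblasts and 7.17 in the KB10973 fibroblasts. In the colonies CXCL8 ran from 2.86 through 3.05 to 3.11, below both cultures of origin. The difference was -5.79 (SE 0.64, adjusted p = 0.000124 in limma), which came to 169-fold within KB10460 and 18.1-fold within KB10973.

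The 5 ELR genes other than CXCL3 stayed called under every alternative run for them. Their size still depended on which fibroblast culture was used. Without the KB10460 fibroblasts the log2 difference was -5.96 for CXCL2, -5.53 for CXCL5, -5.67 for CXCL1, -4.15 for CXCL8 and -4.33 for CXCL6. Without the KB10973 fibroblasts the corresponding values were -9.01, -7.97, -7.14, -7.42 and -6.25.

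The CC chemokines were less uniform. CCL2, the monocyte attractant MCP-1, had log2 values of 9.79 in the KB10460 fibroblasts and 6.63 in the KB10973 fibroblasts. Colonies had 2.79 to 2.96 with a median of 2.87, so that no colony approached a fibroblast value. The CCL2 difference was -5.35 (SE 0.61, adjusted p = 0.000159 in limma), and CCL2 stayed called under every alternative run for it. The difference was -3.77 without the KB10460 fibroblasts and -6.92 when those of KB10973 were left out instead. CCL7, a related monocyte attractant also named MCP-3, had only 4.60 and 3.79 in the fibroblasts. Its colonies ran from 3.22 through 3.29 to 3.47. All colonies were below both fibroblast arrays, with a difference of -0.88 (SE 0.18, adjusted p = 0.00508 in limma). Without the KB10460 fibroblasts the CCL7 difference was -0.48, under the fold threshold. CCL8, or MCP-2, had 3.45 and 3.05 in the fibroblasts and 2.99 to 3.26 in the colonies, which overlapped, and was not called.

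CCL20, which draws dendritic cells and lymphocytes that carry CCR6, had 9.41 in the KB10460 fibroblasts but 4.23 in the KB10973 fibroblasts. Its colonies ran from 3.10 through 3.31 to 3.46. Both fibroblast values lay above all colonies, that of KB10973 by less than 1 log2 unit. The CCL20 difference was -3.52 (SE 1.01, adjusted p = 0.0268 in limma). It was -0.93 without the KB10460 fibroblasts, and the call was lost when the colonies of each donor were averaged (adjusted p = 0.302 in limma). The other 6 lymphoid and tissue CC genes, CCL17, CCL19, CCL21, CCL22, CCL25 and CCL27, were not called.

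CCL5, or RANTES, a T cell and monocyte attractant, was the reverse of the others in its fibroblasts. The KB10973 culture had 7.01 and the KB10460 culture 3.53. Colonies had 2.78 to 2.94 with a median of 2.86, below both. The CCL5 difference was -2.41 (SE 0.68, adjusted p = 0.0248 in limma), but -0.67 without the KB10973 fibroblasts. Averaging the colonies within donor ended this call as well (adjusted p = 0.294 in limma). The other probe set of CCL5 had 3.35 and 3.73 in the KB10460 and KB10973 fibroblasts and 3.22 to 3.45 in the colonies, and it was not called (-0.15, adjusted p = 0.368 in limma). The high value of the KB10973 fibroblasts thus rests on 1 probe set of this gene. CCL4, a macrophage inflammatory protein, was at 3.12 and 3.19 in the fibroblasts and 3.10 to 3.20 in the colonies.

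Among the interferon-inducible CXC chemokines, which draw activated T cells through CXCR3, CXCL10 was called. It had 4.07 in the KB10460 fibroblasts, 3.47 in the KB10973 fibroblasts and 2.97 to 3.32 in the colonies, with a median of 3.15. The groups did not overlap, although the KB10973 value was close to the highest colony, and the difference was -0.62 (SE 0.16, adjusted p = 0.0143 in limma). Without the KB10460 fibroblasts the CXCL10 difference was -0.32 and the call was lost (adjusted p = 0.168 in limma). CXCL9 was at 3.18 and 3.30 in the fibroblasts and at 2.93 to 3.12 in the colonies, with a difference of -0.23 that was not called (adjusted p = 0.0549 in limma). CXCL11 lay between 2.83 and 2.96 on all arrays.

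Of the 21 chemokine genes that were not called, 15 were below the median of the array on all 8 arrays, at log2 values of 2.72 to 3.63. These were CCL1, CCL4, CCL8, CCL11, CCL16, CCL17, CCL18, CCL19, CCL23, CCL25, CCL27, CXCL9, CXCL11, CXCL13 and XCL1. No difference in these genes passed the call thresholds, although for CXCL9 all colonies were below both fibroblast arrays. Low values do not show that the genes are silent, as the probes were made for human sequence. CCL21 lay a little above the array median on all arrays, at 3.84 to 4.14. CCL22 and CCL24 were below it on 7 of the 8 arrays, between 3.30 and 3.88. The iPSC minus fibroblast difference of the 21 genes ran from -0.56 to 0.08. The 11 called genes were themselves below the array median in every colony.

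CX3CL1, or fractalkine, a chemokine anchored in the membrane, stayed under the fold threshold. It had 5.15 in the KB10460 fibroblasts and 4.81 in the KB10973 fibroblasts, and its colonies ran from 4.52 through 4.64 to 4.75. All colonies were below both cultures, by a difference of -0.34 (SE 0.10, adjusted p = 0.0361 in limma). The other probe set of CX3CL1 had a difference of -0.44 (adjusted p = 0.00387 in limma), also under the threshold.

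CXCL14 and CXCL12, like CX3CL1 and CCL21, were above the array median on all arrays. They were not called between the cell types by the probe set taken for the gene. CXCL14, a chemokine of skin and other epithelia, had 8.03 in the KB10460 fibroblasts and 8.94 in the KB10973 fibroblasts. The KB10460 colonies 1 to 3 had 7.74, 6.55 and 6.99, and the KB10973 colonies 8.43, 8.74 and 9.10. The colonies of KB10460 were below their own fibroblasts, whereas those of KB10973 lay on both sides of theirs. The iPSC minus fibroblast difference was -0.56 (SE 0.65, adjusted p = 0.602 in limma) and was not called.

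CXCL12, the ligand of CXCR4 that holds stem and progenitor cells in their niches, had 6.40 and 6.59 in the KB10460 and KB10973 fibroblasts by the probe set taken for the gene. The colonies ran from 5.68 through 6.11 to 6.59 and overlapped the fibroblasts. The difference was -0.33 (SE 0.22, adjusted p = 0.334 in limma). The other CXCL12 probe set had 3.61 and 3.47 in the fibroblasts and ran from 4.06 through 4.14 to 4.38 in the colonies. There all colonies were above both fibroblast arrays (0.64, SE 0.10, adjusted p = 0.00105 in limma), and it was the 1 member probe set that was called higher. The probe sets of this gene therefore disagree on its direction.

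**Figure D2:**
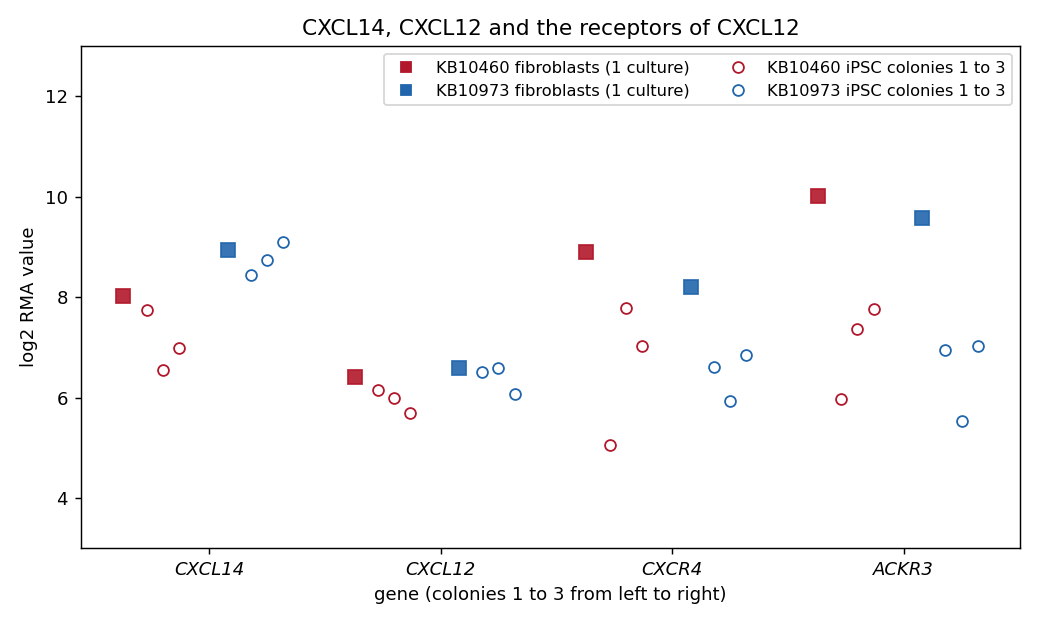
Log2 RMA values (y axis) of CXCL14, CXCL12 and the CXCL12 receptors CXCR4 and ACKR3 (x axis), with squares for the fibroblast cultures and circles for colonies 1 to 3 from left to right, coloured by donor. All KB10973 colonies (8.43 to 9.10) lie above all KB10460 colonies (6.55 to 7.74) for CXCL14, and all colonies lie below both fibroblast cultures for CXCR4 and ACKR3.

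Among the other genes with several probe sets, those of CXCL8, CX3CL1 and XCL1 had the same direction, and those of CCL5 and CXCL5 disagreed on the call. CXCL8 had 10.56 and 5.81 in the KB10460 and KB10973 fibroblasts by its other probe set, against 2.88 to 3.16 in the colonies (-5.17, adjusted p = 0.00229 in limma). CXCL5 had 9.55 and 6.64 by one of its others, against 2.93 to 3.23 in the colonies (-5.06, adjusted p = 0.00014 in limma). A further CXCL5 probe set was at 3.03 and 2.93 in the fibroblasts and 2.76 to 2.94 in the colonies, and it was not called. Probe sets of CCL18, CCL23 and CXCL11, which were low on all arrays, had differences of opposite sign and were not called. The CXCL2, CXCL5 and CXCL8 probe sets taken for the genes are of a type whose probes may also bind other sequences.

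**Figure D3:**
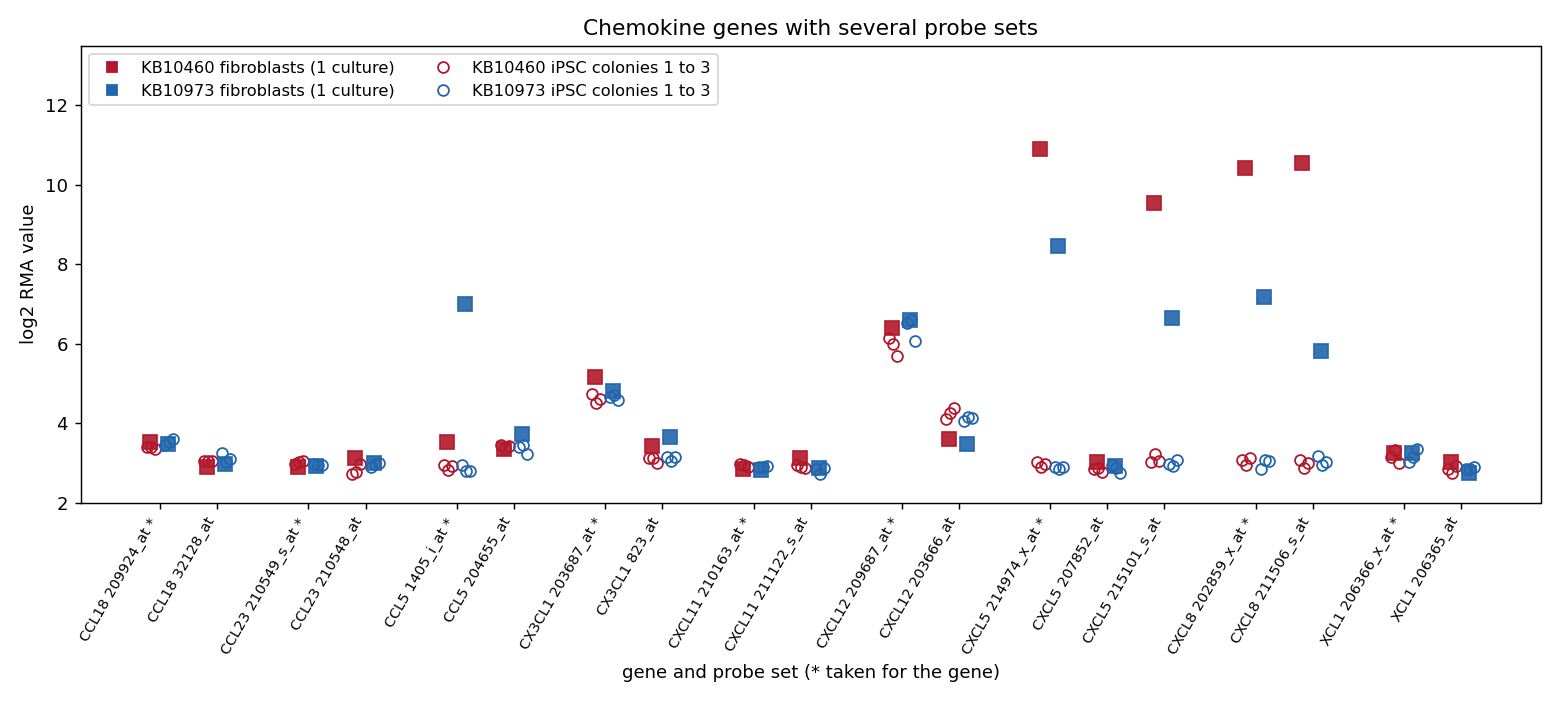
Log2 RMA values (y axis) of the 19 probe sets of the 9 chemokine genes with several (x axis, with an asterisk at the one taken for the gene), with squares for fibroblast cultures and circles for iPSC colonies, coloured by donor. The CXCL8 probe sets are both high in the fibroblasts, whereas 1 of 3 CXCL5 probe sets and 1 of 2 CCL5 probe sets stay low on all arrays, and the CXCL12 probe sets differ in direction.

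The change was then set side by side for the animals. The difference of the change was the change in KB10973 minus that in KB10460, so that a positive value is a larger fall in KB10460. It was called positive for 8 of 32 chemokine genes, or 25%, and for 1.4% of all genes. It was called negative for CCL5, and for 2.02% of all genes. The 8 genes were the 6 ELR chemokines, CCL2 and CCL20. Each animal had 1 fibroblast array, so that the SE and p of this fit come from the spread of the colonies alone, which for these genes lay near background. The values therefore compare 2 single fibroblast arrays, and a difference between the animals cannot be told apart from a difference between these cultures.

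CCL20 had the largest difference of the change. It fell by 6.12 on the log2 scale in KB10460, a 69.6-fold change. In KB10973 it fell by 0.92, a 1.89-fold change, which left a difference of 5.21 (SE 0.21, adjusted p = 3.51e-05 in limma). CXCL3 fell by 5.85 in KB10460 and by 0.96 in KB10973, a difference of 4.89 (SE 0.24, adjusted p = 9.21e-05 in limma). For these genes the KB10973 fibroblasts were close to the colonies, and nearly all of the change lay in KB10460.

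CCL2 fell in both animals, by 6.96 in KB10460 and by 3.73 in KB10973 (3.23, SE 0.15, adjusted p = 8.46e-05 in limma). CXCL8 fell by 7.40 in KB10460 and by 4.18 in KB10973 (3.22, SE 0.18, adjusted p = 0.000236 in limma). CXCL2 fell by 8.98 and by 5.99 respectively (2.99, SE 0.30, adjusted p = 0.00315 in limma). These genes fell strongly in either animal, and by about 3 log2 units more in KB10460. The remaining ELR genes had smaller differences of the same sign. They were 2.37 for CXCL5 (SE 0.15, adjusted p = 0.000398 in limma), 1.89 for CXCL6 (SE 0.19, adjusted p = 0.00298 in limma) and 1.42 for CXCL1 (SE 0.18, adjusted p = 0.00934 in limma). CXCL1 thus had the smallest difference of the ELR genes.

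CCL5 ran the other way. It fell by 0.64 in KB10460 and by 4.17 in KB10973, a difference of -3.53 (SE 0.17, adjusted p = 8.46e-05 in limma). CCL7 (0.87, adjusted p = 0.0645 in limma) and CXCL10 (0.71, adjusted p = 0.152 in limma) were not called.

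**Figure D4:**
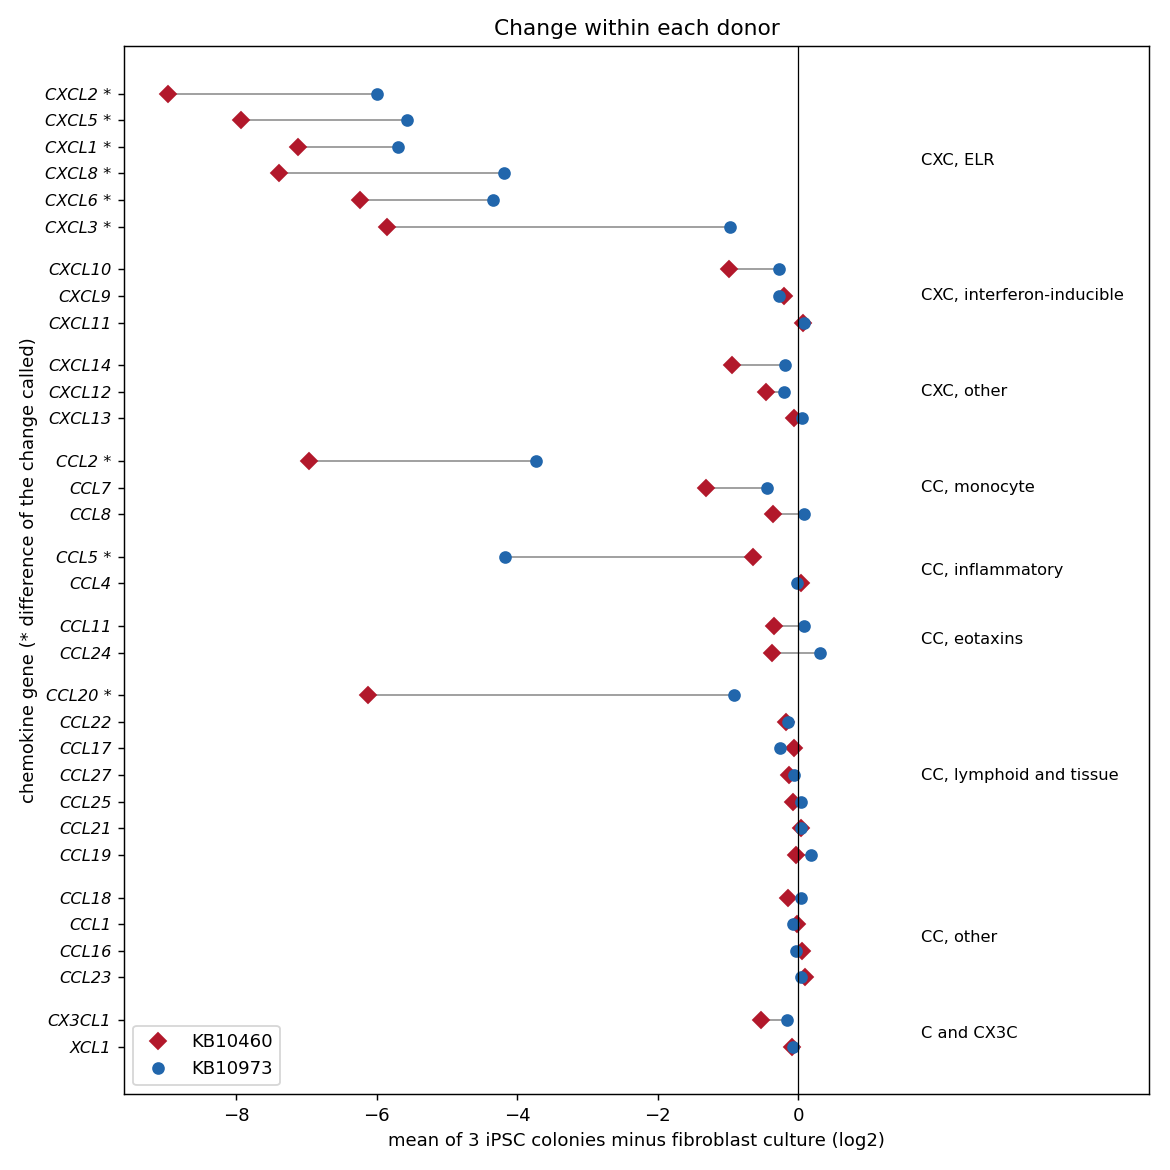
Change from the fibroblast culture to the mean of 3 iPSC colonies (x axis, log2) within KB10460 (red diamonds) and KB10973 (blue circles) for the 32 chemokine genes (y axis, grouped by family), with an asterisk where the difference of the change was called. The change is larger in KB10460 for 8 of the 9 marked genes and larger in KB10973 for CCL5, and most of the other genes lie near 0 in both animals.

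For the called genes the colonies of both donors lay within 2.78 to 3.72, whereas the fibroblast cultures lay much further apart. The KB10460 fibroblasts were higher than the KB10973 fibroblasts for 10 of the 11 called chemokine genes. The calls used these same fibroblast values, so that this count follows in part from the calling. Without the KB10460 fibroblasts the differences of CCL7 and CXCL10 were -0.48 and -0.32, under the fold threshold. Over all chemokine genes, chosen by name, the KB10460 fibroblasts were higher for 21 of 32, and over all genes for 6040 of 11963. The ratio of the KB10460 to the KB10973 culture was 36.3-fold for CCL20, 27.6-fold for CXCL3, 9.65-fold for CXCL8, 8.90-fold for CCL2 and 8.29-fold for CXCL2. It was 2.76-fold for CXCL1, and for CCL5 the KB10973 culture was 11.2-fold higher. With 1 culture per animal these ratios have no replicate check.

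Between the iPSCs of the animals, 3 colonies against 3, no chemokine gene was called in limma, where 0.142% of all genes were. At an unadjusted p under 0.05 there were 3 of 32, or 9.38%, against 11.8% of all genes. CXCL14 was the largest of these, at 7.09 ± 0.61 in KB10460 and 8.76 ± 0.34 in KB10973 (mean ± SD, n = 3 each). All KB10973 colonies were above all KB10460 colonies, with a difference of 1.67 (SE 0.30), or 3.17-fold, at an adjusted p of 0.115 in limma. Without KB10460 colony 1 the CXCL14 difference was 1.99 and passed (adjusted p = 0.0139 in limma). CXCL12 differed by 0.45 (SE 0.17, adjusted p = 0.422 in limma) and CCL11, an eosinophil attractant, by 0.28 (SE 0.10, adjusted p = 0.389 in limma), both higher in KB10973 and neither called.

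Of the ELR chemokine genes, 5 lie in the same stretch of the orangutan genome, and CXCL3 was not found by symbol. In the NHGRI_mPonAbe1-v2.0 annotation, where 29 of the 32 genes were found by symbol, the order of protein-coding genes ran RASSF6, CXCL8, CXCL6, PF4V1, CXCL1, an unnamed locus, PPBP, CXCL5, another unnamed locus, CXCL2 and MTHFD2L. The called genes were interspersed with genes that were low on all arrays. PF4V1, a variant of platelet factor 4, had 3.24 and 3.03 in the KB10460 and KB10973 fibroblasts and 2.96 to 3.36 in the colonies. PPBP, the platelet basic protein, had 3.44 and 3.06 in the fibroblasts and 3.08 to 3.19 in the colonies. MTHFD2L, a mitochondrial enzyme of folate metabolism at one end of the row, had 3.37 and 3.03 in the fibroblasts, and none of these 3 genes was called. RASSF6 had no probe set with its symbol alone.

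**Figure D5:**
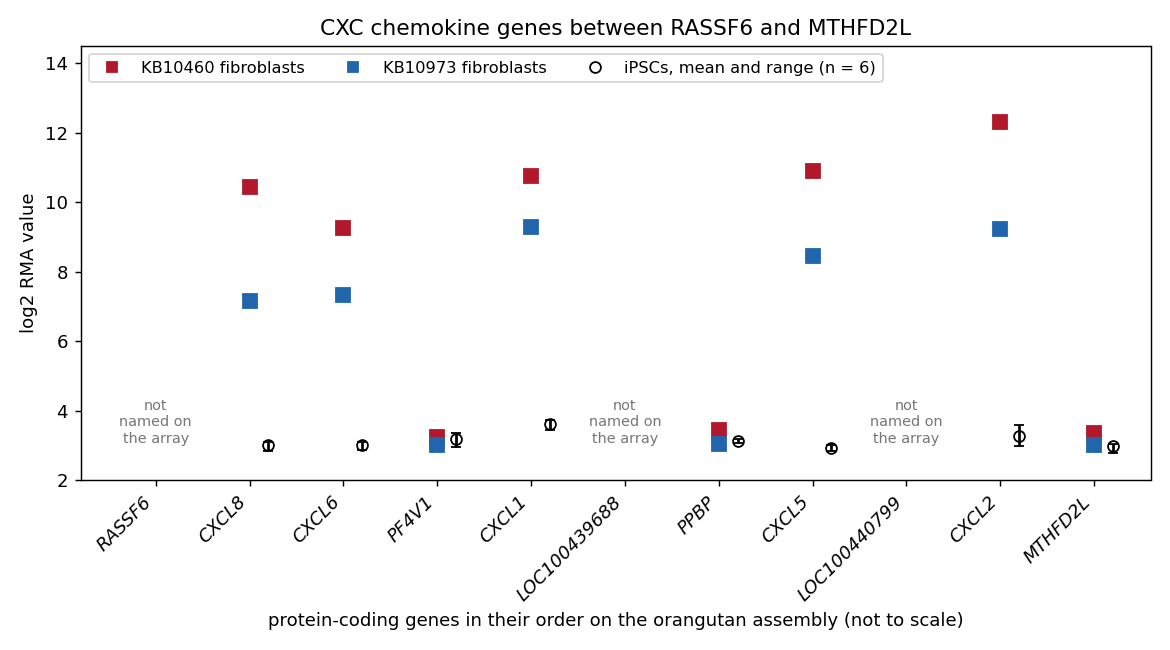
Log2 RMA values (y axis) of genes in their order on the orangutan assembly between RASSF6 and MTHFD2L (x axis, not to scale), with squares for the fibroblast culture of each donor and a circle with a bar for the mean and range of 6 iPSC colonies. CXCL8, CXCL6, CXCL1, CXCL5 and CXCL2 are high in the fibroblasts, whereas PF4V1, PPBP and MTHFD2L, which lie between or beside them, are low on all arrays.

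A second row of neighbours was CCL2, CCL7, CCL8, an unnamed locus and CCL1, in which CCL2 and CCL7 were called lower and the other named genes were not. In another, CXCL9, ART3, CXCL10 and CXCL11, only CXCL10 was called.

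Of 29 listed chemokine receptor names, 21 had a gene on the array. Of these 3 were called lower, or 14.3%, near the 11.5% of all genes, and 16 were below the array median on all arrays. The receptors of the called chemokines that had a gene here were not called. CXCR1, a receptor of CXCL8 and CXCL6, had 3.82 and 3.83 in the KB10460 and KB10973 fibroblasts and 3.65 to 3.89 in the colonies. CXCR2, the common receptor of the ELR chemokines, had 3.01 and 2.83 in the fibroblasts and 2.74 to 3.48 in the colonies. For CCR2, the receptor of CCL2 and CCL7, the fibroblasts had 3.10 and 3.15 and the colonies 3.10 to 3.19. CXCR1 thus lay near the array medians, and CXCR2 and CCR2 below them on all arrays. CCR6, the receptor of CCL20, had 3.15 and 3.26 in the fibroblasts and 3.05 to 3.23 in the colonies. CCR1, bound by CCL5 and CCL7, had 3.28 and 2.85 against 2.92 to 3.10. CXCR3, the receptor of CXCL10, had 3.74 and 3.61 against 3.36 to 3.62.

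The receptors that were called lower belong to CXCL12 or scavenge other chemokines. ACKR3, an atypical receptor that takes up CXCL12, had 10.00 in the KB10460 fibroblasts and 9.58 in the KB10973 fibroblasts. Its colonies ran from 5.52 through 6.99 to 7.76, all below both cultures, with a difference of -3.02 (SE 0.53, adjusted p = 0.00212 in limma). CXCR4, the signalling receptor of CXCL12, had 8.91 and 8.20 in the fibroblasts and ran from 5.05 through 6.73 to 7.78 in the colonies. The CXCR4 difference was -2.02 (SE 0.60, adjusted p = 0.031 in limma). Its colonies were widely spread, and the call was lost without the KB10460 fibroblasts (adjusted p = 0.212 in limma), the KB10973 fibroblasts (0.0619), KB10973 colony 1 (0.0533) or KB10973 colony 2 (0.0563). ACKR4, a scavenger of CCL19, CCL21 and CCL25, had 4.90 and 4.02 in the fibroblasts and 2.81 to 3.02 in the colonies (-1.54, SE 0.19, adjusted p = 0.00021 in limma). The colonies of ACKR4 were all below both fibroblast arrays.

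Of 7 listed genes that handle chemokines outside the cell, 3 were called lower, or 42.9% against 11.5% of all genes. TNFAIP6, a hyaluronan-binding protein that also binds CXCL8, had 9.33 and 9.77 in the KB10460 and KB10973 fibroblasts and 5.45 to 6.79 in the colonies, a difference of -3.27. DPP4 is a peptidase that clips the ends of chemokines such as CXCL12 and CCL5. It had 6.76 and 6.30 in the fibroblasts and 3.65 to 3.90 in the colonies, a difference of -2.75. The other DPP4 probe sets had larger differences, of -4.50 and -4.67. ADAM10, a protease that sheds CX3CL1 from the cell surface, had 9.64 and 9.62 against 8.80 to 9.09, a difference of -0.70, and its other probe sets were under the fold threshold.

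NF-kappaB factors and their feedback genes, 13 in all, had 5 called lower, or 38.5%, against 11.5% of all genes. The largest were NFKBIA, the inhibitor that holds NF-kappaB in the cytoplasm, and the dampening proteins TNIP1 and TNFAIP3. NFKBIA had 9.68 and 9.67 in the fibroblasts and 6.16 to 6.78 in the colonies (-3.21). TNIP1 differed by -2.06 and TNFAIP3 by -1.57. RELA, an activating subunit of the factor, had 5.58 and 5.00 in the fibroblasts, and all colonies were below both, at a median of 3.85 (-1.43). The other RELA probe set was not called (-0.36, adjusted p = 0.0718 in limma). The subunit genes NFKB1, NFKB2, REL and RELB were not called by the probe set taken for the gene.

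Of 16 inflammatory cytokines and receptors 9 were called lower, or 56.2%, against 11.5% of all genes. IL6 had 11.42 in the KB10460 fibroblasts, 9.70 in the KB10973 fibroblasts and 3.38 to 3.62 in the colonies (-7.09). IL1R1, the receptor through which interleukin-1 acts, had 8.34 and 8.77 against 2.88 to 3.28 (-5.55). IL1A had 9.39 and 8.40 against 3.33 to 3.53 (-5.47). IL1RAP, the co-receptor of IL1R1, was at 3.19 and 2.83 in the fibroblasts and was not called, and the other probe sets of IL1A and IL1R1 were low in the fibroblasts. IL1B had 9.50 and 7.18 against 3.28 to 3.68 (-4.81). The difference of the change, which compares 2 single fibroblast arrays, was 2.15 for IL1B, 1.71 for IL6 and 1.03 for IL1A. Each was a larger fall in KB10460. For IL1R1 it was -0.60, a larger fall in KB10973, but this value was not called. TNF had 3.69 and 3.54 in the fibroblasts and IFNG 3.15 and 3.10, with neither called.

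Markers of other cell types were set beside these values, because leukocytes and endothelial cells are rich sources of chemokines. Of 13 leukocyte markers 1 was called lower and 1 higher, or 7.69% each, against 11.5% and 15.2% of all genes. Below the array median on all arrays were 8 of the 13 markers, against 3537 of 11963 genes. The summed log2 level of the leukocyte markers was 47.6 to 50.0 in the fibroblasts and 44.5 to 46.5 in the colonies. Their median iPSC minus fibroblast difference was only -0.04, whereas CD14 alone differed by -3.33. PTPRC, the defining leukocyte marker, had 3.33 and 3.26 in the KB10460 and KB10973 fibroblasts and 2.87 to 3.19 in the colonies, and CSF1R, FCER1G, TYROBP and LYZ were likewise below the array median on all arrays. CD14, a monocyte marker and lipopolysaccharide co-receptor, moved with the chemokines. It had 7.99 in the KB10460 fibroblasts, 5.42 in the KB10973 fibroblasts and 3.22 to 3.58 in the colonies (-3.33, adjusted p = 0.000883 in limma), and its difference of the change was 2.52 (adjusted p = 0.00146 in limma). The CD14 difference was -2.05 without the KB10460 fibroblasts and lost its call with averaged colonies (adjusted p = 0.0883 in limma). LCP1, an actin-bundling protein of leukocytes, was called higher in the colonies (0.64, adjusted p = 0.0205 in limma), a call that was lost without the KB10460 fibroblasts (adjusted p = 0.239 in limma).

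Of 7 endothelial markers 1 was called lower and 2 higher, or 14.3% and 28.6%, against 11.5% and 15.2% of all genes. Their summed log2 level was 27.7 to 31.0 in the fibroblasts and 29.6 to 33.3 in the colonies. PECAM1 had 8.10 and 6.65 in the KB10460 and KB10973 fibroblasts and 3.60 to 4.24 in the colonies (-3.52, adjusted p = 3.77e-05 in limma), while KDR and TEK were called higher in the colonies. The other PECAM1 probe sets were at 3.62 and 3.28 and at 3.70 and 3.50 in the fibroblasts and were not called, so that this difference rests on 1 of 3 probe sets. CDH5, the defining cadherin of endothelium, had 3.10 in both fibroblast cultures and 3.02 to 3.61 in the colonies. The 5 keratinocyte markers were not called, with KRT10 closest (-0.26, adjusted p = 0.0715 in limma), and their summed level was 18.1 to 18.3 in the fibroblasts and 17.7 to 18.2 in the colonies. The part of CD14 and PECAM1, which moved with the chemokines, was not tested.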

How the data were processed

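Total RNA of 8 cultures (6 iPSC colonies and 2 fibroblast cultures) was labelled with biotin and hybridized to one-colour human Affymetrix arrays. The authors ran RMA over all arrays in WebArray, with a version not given in the sources used here, and deposited log2 values for 22277 probe sets. RMA equalizes the distributions of the arrays, so a change common to most transcripts is removed, and mismatches between human probes and orangutan RNA lower signals. The number of arrays limits the precision. No column lacked a sample (0 left over).

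From these values limma 3.58.1 (R 4.3.3, lmFit then eBayes at default settings) was fitted on all probe sets for iPSCs against fibroblasts (8 arrays, no block), KB10973 against KB10460 iPSCs (6 arrays) and the difference of the change (4 groups), with Benjamini-Hochberg adjustment over 22277 probe sets. Calls needed a fold change over 1.5 and an adjusted p under 0.05, two-sided. By the annotation 19070 probe sets had 1 symbol, 1043 had several and 2164 had none, and those with several were not members. Members, lists and tests were chosen with earlier results of these data known. The rule names every chemokine gene, up to 4 called members with the largest change in each of the receptor, handling, NF-kappaB and cytokine lists, and the receptors of called chemokines. CD14, PECAM1, other markers and MTHFD2L were named after their values were seen.

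Both cell types of a donor are from 1 animal, which pairs the arrays by donor, although the donor difference in fibroblasts and that in iPSCs had a correlation of only 0.018 across probe sets. Gene order came from the orangutan assembly NHGRI_mPonAbe1-v2.0, matched by symbol. Alternatives changed the block, the averaging of colonies, the moderation, the array weights, the centring, a filter at a mean log2 value of 5, the fold threshold (2) and the probe set that stands for a gene, and each array was left out in turn. The scripts were tested on simulated data. The SNP arrays, immunostaining and differentiation assays were not analysed here.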

Additional observations from a re-analysis of the deposited data

Results flagged for a closer look

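For 9 chemokine genes the difference of the change from fibroblasts to iPSCs between the animals was past the threshold in limma, with the spread taken from the colonies alone. The KB10973 change minus the KB10460 change was 5.21 for CCL20, 4.89 for CXCL3, 3.23 for CCL2, 3.22 for CXCL8, 2.99 for CXCL2, 2.37 for CXCL5, 1.89 for CXCL6 and 1.42 for CXCL1 on the log2 scale, each a larger fall in KB10460. It was -3.53 for CCL5, a larger fall in KB10973. Each value rests on 1 fibroblast array per animal, so that it compares 2 cultures and shows no difference between the animals themselves. The cause was not tested. Over the 6 iPSC arrays, 0 of the 32 chemokine genes had a colony that stood apart from the others by Dixon's criterion.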

How the results depend on the processing

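Chemokine genes called lower in the iPSCs numbered 11, and 6 when colonies were averaged within donor, which leaves fewer samples. They numbered 2 when probe sets with a mean log2 value of 5 or less were removed, a filter that only 4 chemokine genes passed, and the difference of the change was then called for 2 genes in place of 9. With moderation by trend and robust there were 8 called lower, with the arrays centred on their medians 10, and with a fold over 2 there were 9. Leaving out single arrays gave 9 to 11, with the lowest without the KB10460 fibroblasts. The donor comparison of iPSCs had 0 calls and 0 to 1 when a colony was left out, the 1 being CXCL14 without KB10460 colony 1. CCL20, CXCL3 and CCL5 lost their calls with averaged colonies and under trend and robust moderation (adjusted p of 0.0702, 0.0599 and 0.0648 in limma). CCL7 and CXCL10 lost theirs with averaged colonies, with a fold over 2 and without the KB10460 fibroblasts, and CXCL10 also after centring (-0.58). CCL2, CXCL1, CXCL2, CXCL5, CXCL6 and CXCL8 were called in every setting run for them. With the donor as a replicate block 11 genes were called lower and 0 higher, as without it. Colony numbers are shared by the donors only as numbers (correlations of -0.055, -0.011 and 0.058 across probe sets), and with them as a replicate block 0 chemokine genes were called between the donors. Averaging KB10973 colonies 1 and 2, an alternative chosen after seeing the data, left 0 and 9 calls in the donor comparison and the difference of the change. No direction was reversed among the named genes that were called. Genes near background have little room to fall further on these arrays.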

Other observations

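Chemokines whose symbols lie outside the naming pattern were not called between iPSCs and fibroblasts in limma. CKLF, a chemokine-like factor, had 5.18 and 5.98 in the KB10460 and KB10973 fibroblasts and 5.54 to 5.80 in the colonies. Its difference of the change was called negative (-0.88, adjusted p = 0.04998 in limma), at the edge of the threshold. A probe set shared by CKLF and CKLF-CMTM1 had 7.27 and 7.86 in the KB10460 and KB10973 fibroblasts and 7.22 to 7.62 in the colonies. Its difference of the change was -0.45 and was not called. PF4, or platelet factor 4, had 5.42 and 4.69 in the fibroblasts and 4.71 to 5.24 in the colonies. A probe set shared by CCL3, CCL3L1 and CCL3L3, left out because it carries several symbols, had 4.78 in the KB10460 fibroblasts, 3.10 in the KB10973 fibroblasts and 3.01 to 3.30 in the colonies. Its iPSC minus fibroblast difference was -0.75 (adjusted p = 0.138 in limma), and its difference of the change was 1.69 (adjusted p = 0.00498 in limma), a larger fall in KB10460. A probe set of CCL14 had 4.09 and 3.90 in the fibroblasts and 3.56 to 4.02 in the colonies, which overlapped.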
